A study of Gallus gallus with 8 samples.

Results

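The MEF2 family factors of the chick are the genes MEF2A, MEF2B, MEF2C and MEF2D, which were taken from the deposited table by gene name. They are 4 of the 24356 genes listed. MEF2C had been chosen by its higher level in Lmx1aE1-EGFP+ cells in the same contrast that is described here, and was then labelled otic, while the other members stand beside it as its paralogues. The differences between the groups are therefore given for all 4 without a test. The Lmx1aE1-EGFP+ group holds 4 bulk RNAseq libraries of cells labelled otic placode, and the Sox3U3-EGFP+ group holds 4 libraries of cells labelled epibranchial placode. Each library came from 2000 cells sorted as a biological replicate at ss18 to ss21 (ss, somite stage). Embryos in both groups had received a reporter plasmid by electroporation between ss3 and ss6, in which an enhancer, Lmx1aE1 or Sox3U3, drives EGFP, and no untransfected cells were among the libraries used here. The paper's methods name whole heads as the source of the sorted cells, whereas its results name the dissected ear region. The plasmids were aimed at the territory of the shared otic and epibranchial progenitors. What a group holds is therefore set by which cells took up the plasmid, where its enhancer is active and the EGFP gate. Strain and sex of the embryos are not given in the sources used here.

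MEF2 proteins are transcription factors of the MADS-box type that bind A/T-rich sites in enhancers and promoters. Class IIa histone deacetylases hold them in a repressive state, and MAP kinases and calcium signals release or activate them. In mice MEF2C is known for its role in the heart, skeletal muscle, endothelium, neurons and cranial neural crest, and it is a direct target and partner of SOX10 in melanocytes. SRF is the other MADS-box factor used in muscle, and it is described below with the partners of MEF2.

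Library totals ran from 6559872 to 24173945 counts in the Lmx1aE1-EGFP+ group and from 9388922 to 45183366 counts in the Sox3U3-EGFP+ group, with 2 deeper and 2 shallower libraries in each. No 2 libraries agreed within sampling noise (lowest chi-square per degree of freedom 3.6 over 28 pairs). The edgeR fit covered 16861 genes, among which the median log2 fold change was -0.04. All log2 fold changes set Lmx1aE1-EGFP+ over Sox3U3-EGFP+ cells and carry their standard error (SE). Adjusted p-values come from the quasi-likelihood test of edgeR over all genes tested. Levels are CPM, counts scaled to the library total and then by TMM, edgeR's correction for library composition, and are not corrected for gene length. They were therefore compared between libraries and not between genes.

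The family divided. MEF2C was 4.23 times higher in Lmx1aE1-EGFP+ cells, MEF2A had nearly the same level in both groups, and MEF2D was 1.65 times higher in Sox3U3-EGFP+ cells. MEF2B lay near the limit of counting. Of the 4 members, 1 had no overlap between the groups with Lmx1aE1-EGFP+ cells higher, and 1 had none with them lower, where such genes made up 13.7% and 12.3% of all genes tested. Among the members, the log2 fold change of MEF2C was the only one to exceed 1.5 in size, where 0.712% of all genes tested rose and 2.47% fell past that size at an adjusted p under 0.05. MEF2C had been picked from this contrast, so nothing is read from these shares. In bulk libraries, fewer cells of a type and less RNA per cell cannot be told apart.

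MEF2C (ENSGALG00000014645) had 61.4, 49.6, 47.4 and 74.8 CPM in Lmx1aE1-EGFP+ libraries 1 to 4, against 11.3, 14.1, 19.5 and 10.2 CPM in Sox3U3-EGFP+ libraries 1 to 4. The lowest Lmx1aE1-EGFP+ library stood 2.43 times above the highest Sox3U3-EGFP+ library. In raw counts these values rest on 327 to 1656 reads in the Lmx1aE1-EGFP+ libraries and on 101 to 520 in the Sox3U3-EGFP+ libraries. The means were 58.3 ± 12.6 CPM in Lmx1aE1-EGFP+ cells and 13.8 ± 4.15 CPM in Sox3U3-EGFP+ cells (SD, n = 4 each), and the log2 fold change was 2.09 (SE 0.20). Of the 16861 genes tested, 29 had a higher log2 fold change. MEF2C was still detected in all the Sox3U3-EGFP+ libraries. The high level was therefore a feature of all Lmx1aE1-EGFP+ libraries, of which library 4 was the highest, and the low but measurable level was a feature of all Sox3U3-EGFP+ libraries, of which library 3 was the highest.

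MEF2A (ENSGALG00000032366) had 67.3, 67.0, 67.7 and 59.9 CPM in Lmx1aE1-EGFP+ libraries 1 to 4, against 60.3, 66.7, 62.0 and 64.2 CPM in Sox3U3-EGFP+ libraries 1 to 4. The groups overlapped, and Lmx1aE1-EGFP+ library 4 was the lowest of all. The means were 65.5 ± 3.76 CPM in Lmx1aE1-EGFP+ cells and 63.3 ± 2.78 CPM in Sox3U3-EGFP+ cells (SD, n = 4 each), with a log2 fold change of 0.05 (SE 0.11). The spread of MEF2A between libraries was small, whereas MEF2C varied by more than its paralogue within each group. MEF2A is a broadly expressed member of the family in other vertebrates.

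MEF2D (ENSGALG00000037787), like MEF2A a broadly expressed member, had 22.8, 21.2, 20.6 and 19.7 CPM in Lmx1aE1-EGFP+ libraries 1 to 4, against 34.7, 41.7, 28.5 and 33.6 CPM in Sox3U3-EGFP+ libraries 1 to 4. Each Lmx1aE1-EGFP+ library lay below each Sox3U3-EGFP+ library, and the gap between the nearest was 1.25-fold. The means were 21.1 ± 1.32 CPM in Lmx1aE1-EGFP+ cells and 34.6 ± 5.46 CPM in Sox3U3-EGFP+ cells (SD, n = 4 each), and the log2 fold change was -0.72 (SE 0.15). The difference was larger between the deeper libraries (-0.90) than between the shallower ones (-0.49), as Sox3U3-EGFP+ libraries 1 and 2, which are the deeper ones, held the most MEF2D. The difference between the depths was not tested.

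MEF2B (ENSGALG00000037558) had 8, 4, 57 and 6 counts in Lmx1aE1-EGFP+ libraries 1 to 4, against 51, 7, 8 and 10 counts in Sox3U3-EGFP+ libraries 1 to 4. That is 0.27 to 2.37 CPM in Lmx1aE1-EGFP+ cells and 0.38 to 1.11 CPM in Sox3U3-EGFP+ cells. The groups overlapped, and the log2 fold change of 0.41 was smaller than its SE of 0.60. A difference in MEF2B was not detectable at this depth. The value of 57 counts in Lmx1aE1-EGFP+ library 3 stood above the other libraries of its group. MEF2B is best known from germinal-centre B cells of mammals.

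**Figure D1:**
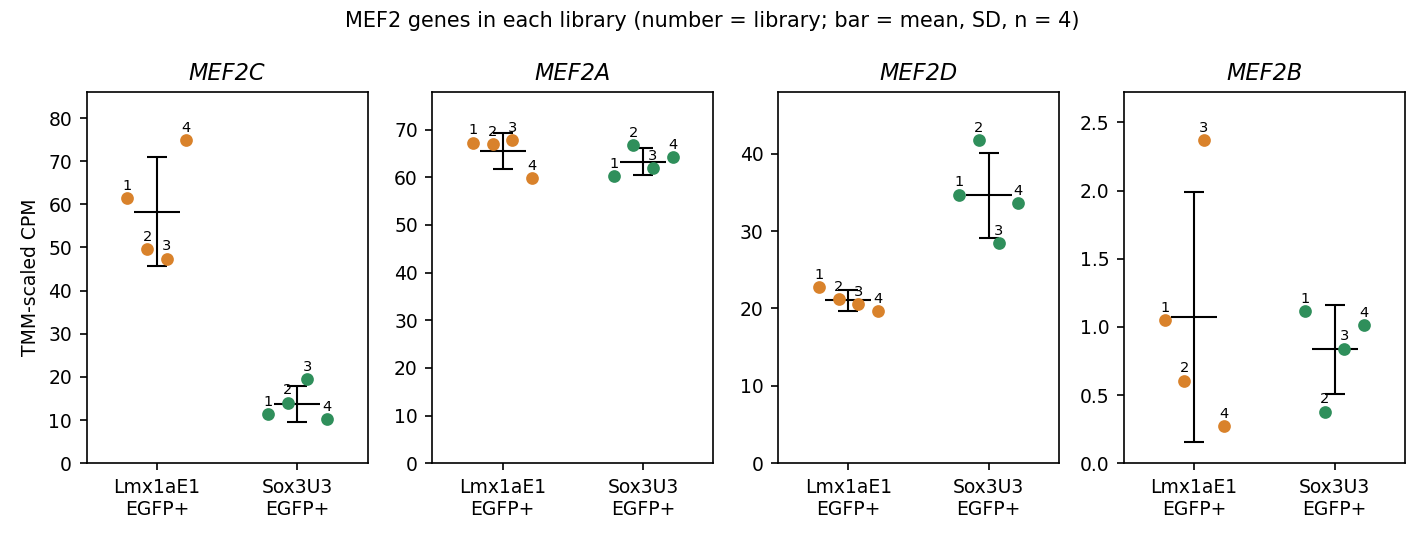
TMM-scaled CPM of MEF2C, MEF2A, MEF2D and MEF2B (vertical axes from 0, one scale per gene) in the 4 Lmx1aE1-EGFP+ libraries (left, orange) and the 4 Sox3U3-EGFP+ libraries (right, green), with the library number above each point and the mean and SD as bars. MEF2C sits between 47.4 and 74.8 CPM in Lmx1aE1-EGFP+ libraries and between 10.2 and 19.5 CPM in Sox3U3-EGFP+ libraries, MEF2A overlaps, and MEF2D lies lower in each Lmx1aE1-EGFP+ library.

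The make-up of the family was then compared library by library, as the share of the summed MEF2 counts that fell on each member. A share of this kind does not depend on the scaling between libraries. It does depend on gene length, so that a member's share was compared between groups and not with the share of another member. The summed level of the 4 genes was 146 ± 8.9 CPM in Lmx1aE1-EGFP+ cells and 113 ± 7.02 CPM in Sox3U3-EGFP+ cells (SD, n = 4 each), without overlap (138 to 155 CPM against 107 to 123 CPM). The family total thus differed by less than MEF2C alone.

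MEF2C made up 40.3%, 35.8%, 34.3% and 48.4% of the MEF2 counts in Lmx1aE1-EGFP+ libraries 1 to 4, against 10.6%, 11.4%, 17.6% and 9.38% in Sox3U3-EGFP+ libraries 1 to 4. The exact 95% binomial interval was 32.7% to 36.0% for the lowest Lmx1aE1-EGFP+ library and 15.4% to 20.1% for the highest Sox3U3-EGFP+ library. Such intervals cover counting error only. The share of MEF2D was 14.5% ± 1.19 in Lmx1aE1-EGFP+ cells, against 30.7% ± 3.58 in Sox3U3-EGFP+ cells (SD, n = 4 each). MEF2A made up 45.1% ± 4.77 in Lmx1aE1-EGFP+ cells, against 56.3% ± 1.90 in Sox3U3-EGFP+ cells (SD, n = 4 each). The MEF2A share was thus lower in Lmx1aE1-EGFP+ cells although its own level was not, as the sum it is divided by was larger there. MEF2B stayed under 2% in every library, with at most 1.72% in Lmx1aE1-EGFP+ and 1.04% in Sox3U3-EGFP+ libraries.

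Within a library, the log2 ratio of MEF2C to MEF2D counts averaged 1.45 ± 0.34 in Lmx1aE1-EGFP+ cells, against -1.36 ± 0.55 in Sox3U3-EGFP+ cells (SD, n = 4 each). The difference between the groups was 2.81 on the log2 scale, larger than that of either gene. For MEF2C to MEF2A the same ratio averaged -0.19 ± 0.38 in Lmx1aE1-EGFP+ cells, against -2.24 ± 0.42 in Sox3U3-EGFP+ cells. For MEF2A to MEF2D it averaged 1.64 ± 0.07 in Lmx1aE1-EGFP+ cells, against 0.88 ± 0.19 in Sox3U3-EGFP+ cells. None of the 3 ratios overlapped between the groups. The ratios share members, MEF2C had been picked from this contrast, and no such share was computed over other gene pairs. Nothing is therefore read from this count.

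**Figure D2:**
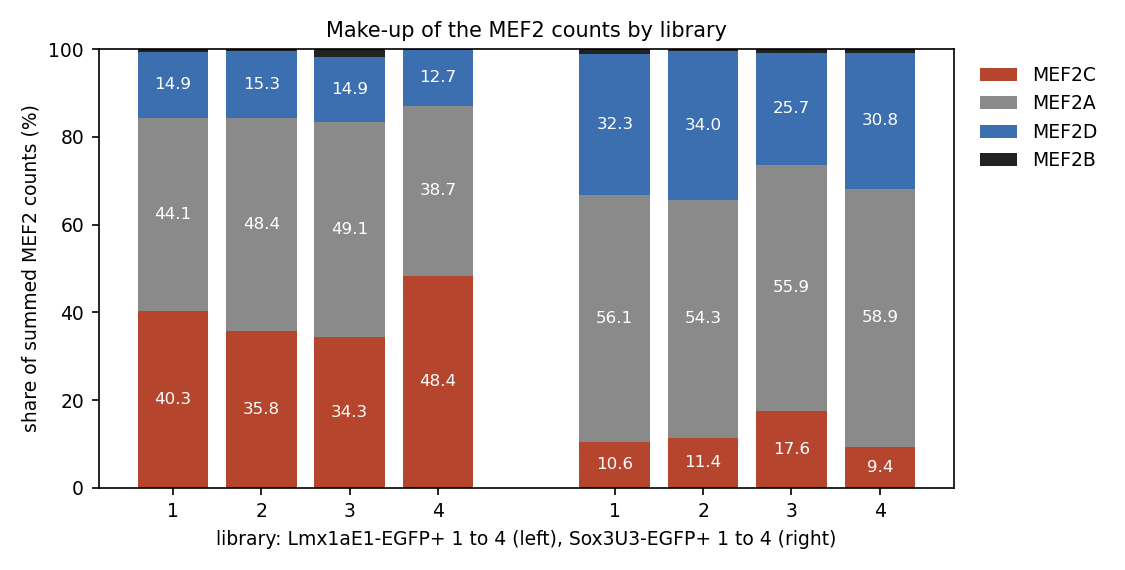
Stacked bars give the percentage of the summed MEF2 counts that fell on MEF2C (red), MEF2A (grey), MEF2D (blue) and MEF2B (black) in each library, with Lmx1aE1-EGFP+ libraries 1 to 4 on the left and Sox3U3-EGFP+ libraries 1 to 4 on the right. MEF2C takes 34.3% to 48.4% in Lmx1aE1-EGFP+ libraries and 9.38% to 17.6% in Sox3U3-EGFP+ libraries.

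Neural crest markers were mostly higher in the group with more MEF2C. Of 10 neural crest markers tested, 9 rose in Lmx1aE1-EGFP+ cells and none fell, where 12.1% of all genes tested rose and 11.3% fell at an adjusted p under 0.05. The marker lists were written with earlier results of these data known, so that this count is a description of the list. The summed level of the crest markers was 1584 to 1906 CPM in Lmx1aE1-EGFP+ libraries and 346 to 498 CPM in Sox3U3-EGFP+ libraries. A large part of this sum was SOX10 alone, with 706 to 948 CPM in Lmx1aE1-EGFP+ libraries and 149 to 208 CPM in Sox3U3-EGFP+ libraries. FOXD3, an early neural crest factor, had 63.8 ± 3.69 CPM in Lmx1aE1-EGFP+ cells, against 6.13 CPM on average in Sox3U3-EGFP+ cells, and its log2 fold change was 3.34 (SE 0.31, adjusted p = 2.43e-05, edgeR). Both the MEF2C level and the crest sum were highest in Lmx1aE1-EGFP+ library 4 and lowest in Sox3U3-EGFP+ library 4. Elsewhere within the groups the order differed. Lmx1aE1-EGFP+ library 3 had the lowest MEF2C of its group (47.4 CPM) at a crest sum of 1731 CPM, above the 1584 CPM of library 2. Sox3U3-EGFP+ library 3 had the highest MEF2C of its group (19.5 CPM) at 421 CPM, below the 498 CPM of library 2. For every 100 CPM of the crest markers there were 3.72, 3.13, 2.74 and 3.93 CPM of MEF2C in Lmx1aE1-EGFP+ libraries 1 to 4, against 2.51, 2.82, 4.64 and 2.95 CPM in Sox3U3-EGFP+ libraries 1 to 4. This ratio overlapped between the groups. Any gene with a log2 fold change near that of the crest list (median 1.91) tends to do so by arithmetic. Nothing is therefore read from the overlap. The part of the crest markers in the MEF2C difference was not tested. They were not at 0 in the Sox3U3-EGFP+ libraries either, and SOX10 is also expressed by the otic placode of the chick.

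Endothelium, heart and skeletal muscle are other tissues in which MEF2C is known. Most of their listed markers did not pass the test. Their counts are to be read beside the 12.1% of all genes tested that rose and the 11.3% that fell. None of the 11 endothelium markers tested rose in Lmx1aE1-EGFP+ cells and 2 (KDR and EGFL7) fell, with summed levels of 128 to 222 CPM in Lmx1aE1-EGFP+ libraries and 177 to 317 CPM in Sox3U3-EGFP+ libraries. The adhesion molecules CDH5 and PECAM1, which define endothelium, were at -1.12 and -0.27 on the log2 scale and did not pass. None of the 11 heart muscle markers rose and 3 (NKX2-5, TNNT2 and TNNI1) fell, with 54.4 to 87.6 CPM in Lmx1aE1-EGFP+ libraries and 96.7 to 246 CPM in Sox3U3-EGFP+ libraries. None of the 8 skeletal muscle markers tested rose and 2 (MYF6 and ACTA1) fell, both with calls that depended on single libraries, as given with the partners and targets of MEF2. The myogenic factors MYOD1 and MYF5 had under 2 CPM on average in both groups. MYL4, a myosin light chain of atrial and embryonic muscle that is on none of the lists, did rise, with 225 CPM in Lmx1aE1-EGFP+ cells, against 71.2 CPM in Sox3U3-EGFP+ cells on average (log2 fold change 1.66, SE 0.10). Of 9 mesenchyme markers tested, 4 (TWIST1, PRRX1, PDGFRA and COL1A1) rose and none fell. The summed levels of 950 to 1106 CPM in Lmx1aE1-EGFP+ and 739 to 1260 CPM in Sox3U3-EGFP+ libraries overlapped, but without the abundant COL1A2 and LUM, neither of which passed the test, they were 144 to 203 CPM in Lmx1aE1-EGFP+ libraries and 72.4 to 109 CPM in Sox3U3-EGFP+ libraries. None of the 5 blood markers passed the test in either direction, and their sum ran from 13.4 to 382 CPM within Lmx1aE1-EGFP+ and from 16.2 to 153 CPM within Sox3U3-EGFP+ libraries.

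The labels of the sorted cells were checked against their own markers in the same way. Of 10 otic markers tested, 2 rose in Lmx1aE1-EGFP+ cells (LMX1A and the cartilage collagen COL9A3) and 2 fell (PRDM12 and PAX2, a factor of the otic and epibranchial territory). The otic list leaves out the SoxE factors, which the paper also places in otic cells. SOX8 and SOX10 were higher in Lmx1aE1-EGFP+ cells (1.87, SE 0.22, and 2.16, SE 0.12), whereas SOX9 was lower (-0.52, SE 0.17). They were set beside this list after their values had been seen. The enhancer Lmx1aE1 comes from the LMX1A locus, so that the level of LMX1A is not independent of the EGFP gate. PAX2 had 34.5 ± 2.28 CPM in Lmx1aE1-EGFP+ cells and 85.7 CPM on average in Sox3U3-EGFP+ cells. The otic sum was 350 to 447 CPM in Lmx1aE1-EGFP+ libraries and 244 to 304 CPM in Sox3U3-EGFP+ libraries. This order rested on COL9A3, since without it the sum was 164 to 215 CPM in Lmx1aE1-EGFP+ libraries and 201 to 251 CPM in Sox3U3-EGFP+ libraries. The homeobox gene SOHO-1 had 44.1 ± 4.76 CPM in Lmx1aE1-EGFP+ cells and 21.9 CPM on average in Sox3U3-EGFP+ cells, without overlap, and did not pass (0.99, SE 0.33, adjusted p = 0.06, edgeR). Of the epibranchial and neuron markers, ISL1 was the only 1 of 5 tested to pass, lower in Lmx1aE1-EGFP+ cells, while NEUROG1 and POU4F1 were below the filter on low counts. The marker genes named here beyond FOXD3, SOX10, LMX1A, SOHO-1, NKX2-5, TWIST1, PRRX1, MYOD1, MYF5, CDH5 and PECAM1 were picked after their values had been seen.

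**Figure D3:**
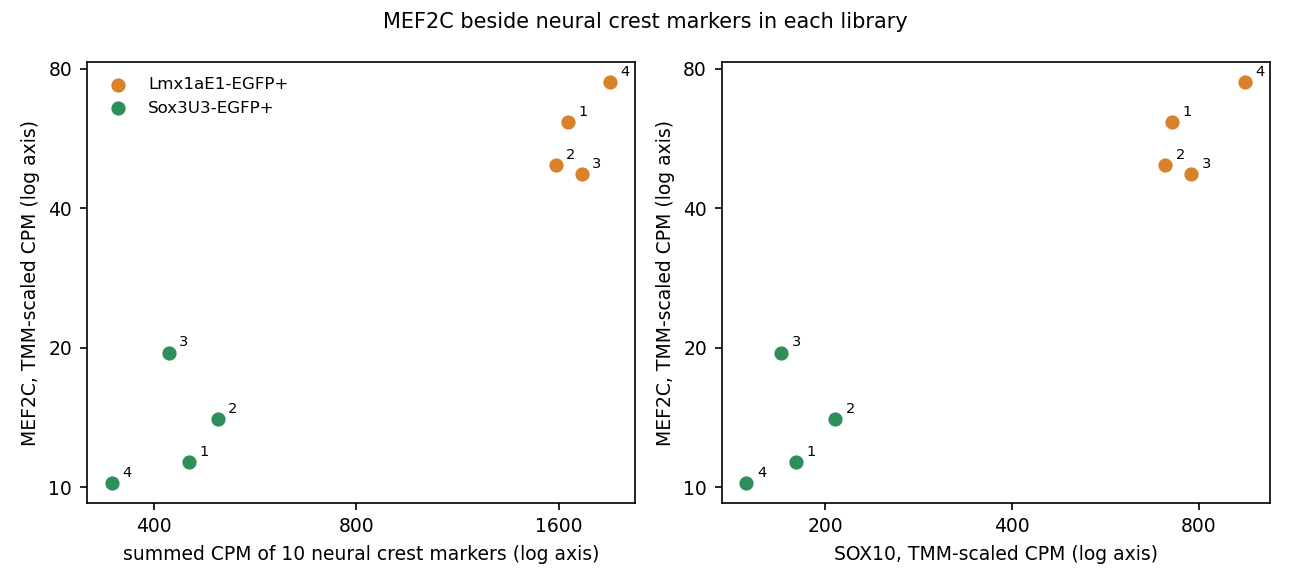
MEF2C in TMM-scaled CPM (vertical log axes) against the summed CPM of 10 neural crest markers (left) and SOX10 CPM (right), both on log axes, with one numbered point per library (Lmx1aE1-EGFP+ orange, Sox3U3-EGFP+ green). The Lmx1aE1-EGFP+ points lie at 1584 to 1906 CPM of crest markers and the Sox3U3-EGFP+ points at 346 to 498 CPM.

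Around the family, 83 gene names were listed by their known relation to MEF2, with some genes listed under an older name as well, and 67 could be tested. In Lmx1aE1-EGFP+ cells 14 of them rose and 18 fell at an adjusted p under 0.05, or 20.9% and 26.9%, beside the 12.1% and 11.3% of all genes tested. The lists were written with earlier results of these data known, so that these shares are a description of the lists.

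SoxE factors and genes described as SOX10 targets, among which MEF2C counts in mouse melanocytes, were mostly higher. Of 10 tested, 7 rose in Lmx1aE1-EGFP+ cells and 1 fell, with a median log2 fold change of 0.92. SOX10 had 725, 706, 777 and 948 CPM in Lmx1aE1-EGFP+ libraries 1 to 4, against 179, 208, 170 and 149 CPM in Sox3U3-EGFP+ libraries 1 to 4. Its log2 fold change of 2.16 (SE 0.12) was close to that of MEF2C, and that of SOX8 was 1.87 (SE 0.22). EDNRB, in mammals an endothelin receptor of crest-derived pigment and enteric cells, had 16.1 ± 4.57 CPM in Lmx1aE1-EGFP+ cells and 2.96 ± 0.73 CPM in Sox3U3-EGFP+ cells (SD, n = 4 each). Its log2 fold change was 2.40 (SE 0.27, adjusted p = 8.5e-06, edgeR). GJB1, a gap junction protein of Schwann cells, rose by 1.05 (SE 0.21). ERBB3 did not pass the test (0.12, SE 0.17). SOX9 went the other way at -0.52 (SE 0.17, adjusted p = 0.0406), but this call was lost without any 1 of 6 libraries, Lmx1aE1-EGFP+ 1, 2 and 4 and Sox3U3-EGFP+ 1, 2 and 4 (adjusted p 0.0644 to 0.143, edgeR).

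Partners and co-activators of MEF2 went both ways. Of 15 tested, 3 rose in Lmx1aE1-EGFP+ cells, SRF, VGLL4 and CREBBP, and 4 fell, VGLL2, NKX2-5, MYF6 and MYOCD. SRF had 82.7, 67.7, 65.4 and 54.5 CPM in Lmx1aE1-EGFP+ libraries 1 to 4, against 36.3, 38.5, 39.7 and 39.2 CPM in Sox3U3-EGFP+ libraries 1 to 4, a log2 fold change of 0.81 (SE 0.13, adjusted p = 0.000341, edgeR). SRF thus rose in the group with more MEF2C, though within that group it was lowest in library 4, where MEF2C was highest. VGLL4, a cofactor of TEAD proteins, rose by 0.97 (SE 0.10), and CREBBP, a histone acetyltransferase that MEF2 recruits, rose by 0.62 (SE 0.13).

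VGLL2, a cofactor of TEAD and MEF2 in skeletal muscle that also marks pharyngeal ectoderm and endoderm, had 7.20, 4.85, 4.98 and 5.74 CPM in Lmx1aE1-EGFP+ libraries 1 to 4, against 40.9, 48.7, 31.6 and 46.7 CPM in Sox3U3-EGFP+ libraries 1 to 4. Its log2 fold change was -2.89 (SE 0.19, adjusted p = 2.86e-08, edgeR). NKX2-5, the cardiac and pharyngeal homeobox factor, was at 0.83 ± 0.45 CPM in Lmx1aE1-EGFP+ cells and 6.16 ± 1.74 CPM in Sox3U3-EGFP+ cells (SD, n = 4 each), and the log2 fold change was -2.81 (SE 0.38). MYF6, a myogenic factor, was at -1.30 (SE 0.37, adjusted p = 0.0162) and MYOCD, the SRF cofactor of heart and smooth muscle, at -1.11 (SE 0.32, adjusted p = 0.0187, edgeR). Both calls rest on few counts. In the deeper libraries alone MYOCD was at -0.74 (adjusted p = 0.271), and in the shallower ones MYF6 was at -1.02 (adjusted p = 0.309). The call of MYF6 was also lost without Lmx1aE1-EGFP+ library 2 or Sox3U3-EGFP+ library 1 (adjusted p 0.0532 to 0.0603), and that of MYOCD without Lmx1aE1-EGFP+ library 1 or 2 or Sox3U3-EGFP+ library 3 (adjusted p 0.0516 to 0.0625).

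Of 10 listed muscle targets of MEF2 tested, none rose in Lmx1aE1-EGFP+ cells and 4 fell, TNNT2, SYNPO2L, SMYD1 and ACTA1, and the median log2 fold change was -1.74. TNNT2, the troponin T of heart muscle, had 1.05, 3.03, 3.57 and 2.21 CPM in Lmx1aE1-EGFP+ libraries 1 to 4, against 27.1, 13.1, 6.41 and 13.9 CPM in Sox3U3-EGFP+ libraries 1 to 4, a log2 fold change of -2.59 (SE 0.44, adjusted p = 0.00152, edgeR). SMYD1, a muscle methyltransferase and direct target of MEF2C in the mouse heart, averaged 0.73 CPM in Lmx1aE1-EGFP+ cells, against 2.65 CPM in Sox3U3-EGFP+ cells. SMYD1 was at -2.04 on the log2 scale, but at -0.73 in the shallower libraries alone, where the call was lost (adjusted p = 0.475), and at -3.02 in the deeper ones. The mean levels of the 4 were at most 3 CPM in Lmx1aE1-EGFP+ cells, ACTA1 (20.5 CPM) excepted, and 3 genes of the list (TNNT2, ACTC1 and MYL2) are heart muscle markers as well, with the sums given above. The call of SYNPO2L was lost without Sox3U3-EGFP+ library 1 (adjusted p = 0.0712), and that of ACTA1 without Lmx1aE1-EGFP+ library 1, 2 or 4 (adjusted p 0.0614 to 0.075, edgeR).

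Targets of MEF2 outside muscle went both ways. Of 10 tested, 2 rose, DLX5 and JUN, and 3 fell, KLF2, NR4A1 and BDNF. DLX5, a homeobox gene that MEF2C activates in the branchial arches of the mouse, had 158, 130, 134 and 105 CPM in Lmx1aE1-EGFP+ libraries 1 to 4, against 58.1, 55.1, 84.8 and 46.6 CPM in Sox3U3-EGFP+ libraries 1 to 4. Its log2 fold change was 1.11 (SE 0.17, adjusted p = 0.000299, edgeR), whereas DLX6, its neighbour in vertebrate genomes, was near 1 CPM in both groups and did not pass (-0.26, SE 0.51). JUN rose by 0.96 (SE 0.19). KLF2, which MEF2 activates downstream of the kinase MAPK7 in endothelium, had 21.7 ± 5.47 CPM in Lmx1aE1-EGFP+ cells and 50.7 ± 7.61 CPM in Sox3U3-EGFP+ cells (SD, n = 4 each), and the log2 fold change was -1.22 (SE 0.18, adjusted p = 0.000126, edgeR). It fell together with 2 of the 11 endothelium markers above. BDNF, an activity-dependent neurotrophin, was at -1.07 (SE 0.29), but at -0.48 in the deeper libraries alone, where the call was lost (adjusted p = 0.435), and at -1.69 in the shallower ones. The call of the nuclear receptor NR4A1 (-1.14, SE 0.40, adjusted p = 0.0497) was lost without any 1 of 6 libraries, Lmx1aE1-EGFP+ 2, 3 and 4 and Sox3U3-EGFP+ 1, 2 and 4 (adjusted p 0.0784 to 0.132, edgeR).

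Co-repressors of MEF2 went both ways, as of 5 tested 1 rose in Lmx1aE1-EGFP+ cells, 1 fell and 3 did not pass. The class IIa histone deacetylases tested among them, HDAC7 and HDAC4, were not higher in Lmx1aE1-EGFP+ cells. HDAC7, a class IIa histone deacetylase, had 131, 129, 124 and 124 CPM in Lmx1aE1-EGFP+ libraries 1 to 4, against 149, 186, 169 and 187 CPM in Sox3U3-EGFP+ libraries 1 to 4, a log2 fold change of -0.45 (SE 0.10, adjusted p = 0.00376, edgeR). The call was lost in the deeper libraries alone (-0.41, adjusted p = 0.103). HDAC4 of the same class was at 68.2 ± 2.37 CPM in Lmx1aE1-EGFP+ cells and 80.8 ± 7.32 CPM in Sox3U3-EGFP+ cells (SD, n = 4 each) and did not pass (-0.24, SE 0.11, adjusted p = 0.118). HDAC5 and HDAC9 were not analysed here.

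Among 18 signalling genes tested that act on MEF2 or on its co-repressors, 1 rose in Lmx1aE1-EGFP+ cells and 5 fell. PRKD3, a protein kinase D, rose by 0.81 (SE 0.12, adjusted p = 0.000144, edgeR), whereas PRKD1 of the same family fell by 0.55 on the log2 scale (SE 0.12). The p38 kinases MAPK11 and MAPK12 fell by 0.81 and 0.82 (SE 0.15 and 0.17). MAPK14, the best known p38 kinase, had 4.73 ± 0.90 CPM in Lmx1aE1-EGFP+ cells and 4.50 ± 0.36 CPM in Sox3U3-EGFP+ cells (SD, n = 4 each) and did not pass. CAMK2D, a calcium-dependent kinase of class IIa deacetylases, fell by 0.87 (SE 0.17), and SIK1, a kinase of the same substrates, fell by 0.69 (SE 0.17, adjusted p = 0.00829, edgeR). With fewer libraries, the calls of MAPK12, PRKD1 and SIK1 were lost in the shallower ones alone (-0.69, -0.49 and -0.45, adjusted p 0.0836 to 0.105) and that of CAMK2D in the deeper ones alone (-0.56, adjusted p = 0.0721). MAPK7 was not analysed here.

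**Figure D4:**
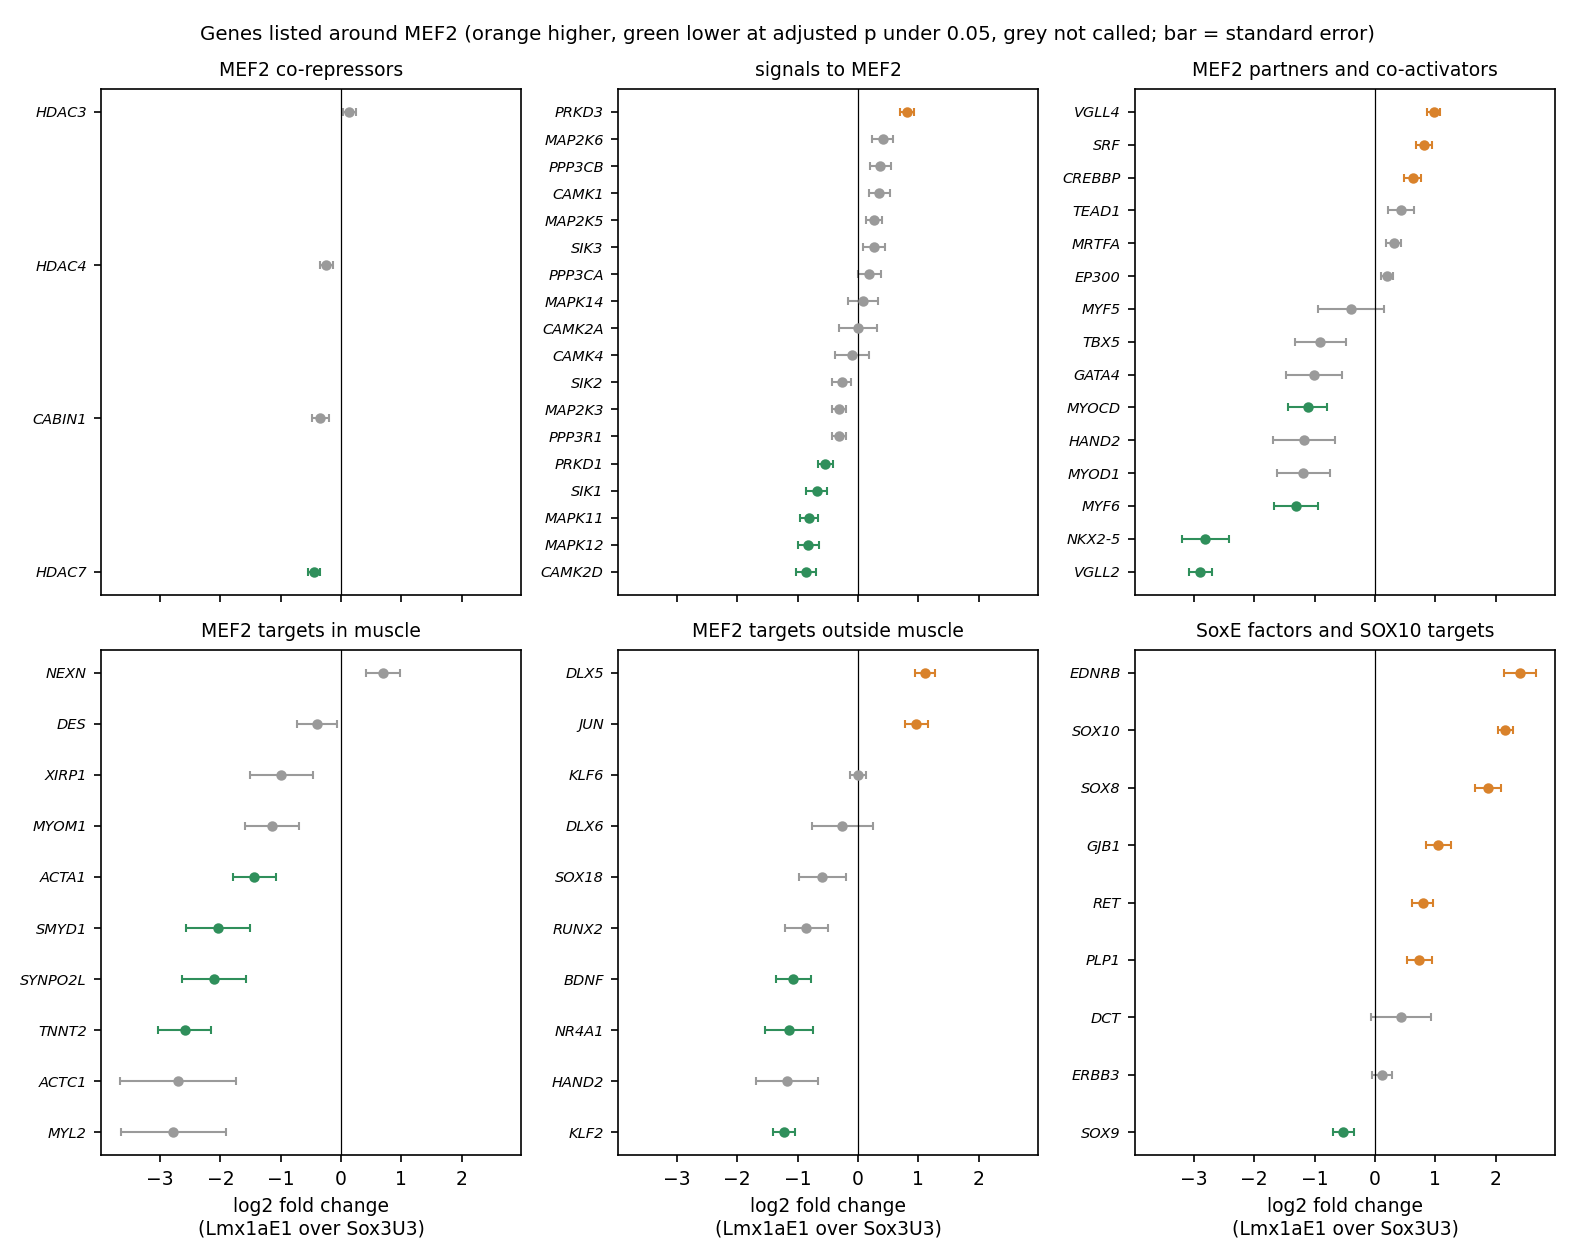
Log2 fold changes of 65 tested genes listed around MEF2 (horizontal axes, Lmx1aE1-EGFP+ over Sox3U3-EGFP+, bars for standard errors) in 6 panels by list. HAND2 stands in 2 panels, orange genes rose and green genes fell in Lmx1aE1-EGFP+ cells at an adjusted p under 0.05, and grey genes did not pass. SoxE factors and SOX10 targets lie mostly to the right and muscle targets mostly to the left.

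The genes whose log2 CPM followed each member most closely over the 8 libraries were read from 7646 named genes with a mean of at least 10 CPM. All 8 libraries enter each value, so that for MEF2C and MEF2D Pearson's r mostly follows the group difference. For MEF2C the 5 closest were DRG2, FASN, COTL1, OAZ2 and MOXD1 (r 0.988 to 0.994), of which MOXD1 is expressed in the neural crest of the chick. Their log2 fold changes of 0.26 to 0.76 were all smaller than that of MEF2C. For MEF2D they were TTC17, FRMD4A, TMEM181, SLC38A2 and SLC16A3 (r 0.979 to 0.984). MEF2A, which did not follow the groups, was closest to ATL2, TMEM130, SENP6, NR1H3 and RERE (r 0.903 to 0.919), and MEF2B, on few counts, to MAN2A1, CDK11A, MNT, LTBP2 and UBE2T (r 0.832 to 0.937).

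Between members, r over the 8 libraries was -0.924 for MEF2C and MEF2D and 0.222 for MEF2C and MEF2A. With the group means subtracted, r of MEF2C was -0.372 with MEF2D and -0.422 with MEF2A, so that the value of -0.924 mostly follows the difference between the groups. With SOX10, r of MEF2C was 0.968 over the libraries and 0.481 with the group means subtracted. For the crest factors these values were 0.977 and 0.700 with TFAP2B, 0.953 and 0.483 with FOXD3, and 0.883 and -0.387 with PAX7. For SOX8 they were 0.906 and 0.085, and for SOX9 -0.794 and -0.693. After the group means were subtracted, the genes closest to MEF2C were ORC3, XRCC4, ADK, SRSF3 and RAD23B (r 0.956 to 0.982), none of which is on a list used here. They are the extremes of 7646 genes compared over only 8 libraries, so nothing is read from them. None of the r values within groups was tested. With log2 library totals r was -0.211 for MEF2C, -0.479 for MEF2A and 0.207 for MEF2D.

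**Figure D5:**
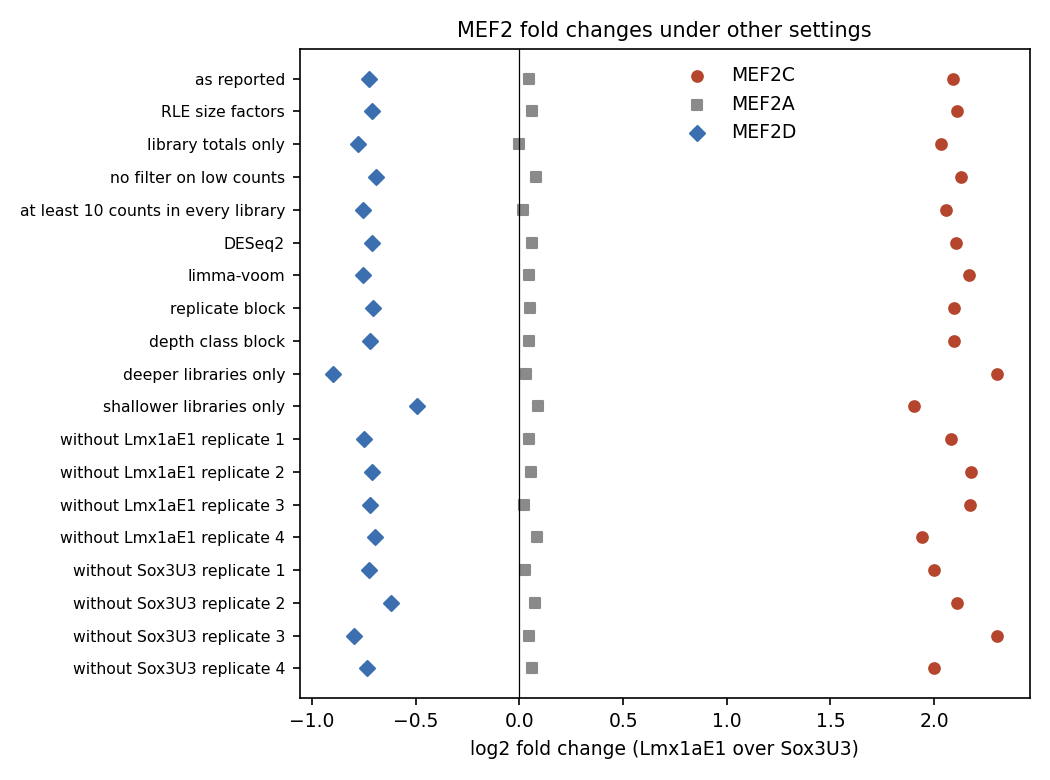
Log2 fold changes (horizontal axis, Lmx1aE1-EGFP+ over Sox3U3-EGFP+) of MEF2C (red circles), MEF2A (grey squares) and MEF2D (blue diamonds) as reported and under 18 other settings (rows). MEF2C stays between 1.90 and 2.30 and MEF2D between -0.90 and -0.49, while MEF2A stays near 0.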

How the data were processed

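Reads were 75 bp paired-end from Nextera low input libraries. They were aligned by the authors to GalGal6 with STAR in the NF-core RNAseq pipeline, with Trim Galore and featureCounts named in the submitters' processing notes. The strand setting is not given in the sources used here, so reads of overlapping or antisense genes cannot be told apart. The authors deposited raw counts per Ensembl gene in 1 table with no normalization.

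Genes were filtered with filterByExpr, scaled by TMM and compared with edgeR's robust quasi-likelihood test (edgeR 4.0.16, R 4.3.3), with group as the only term and Benjamini-Hochberg adjustment over all genes tested. A gene was called at an adjusted p under 0.05. SE values come from the fold change and its F statistic, and log2 CPM values used a prior count of 2. The script was tested on simulated data.

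Members and lists were chosen with earlier results of these data known. Lists were matched by gene name. Named genes were the members, in each pathway list up to 5 called genes of largest fold change per direction, the fixed genes HDAC4, HDAC5, HDAC7, HDAC9, MAPK7, MAPK14, SRF, SOX8, SOX9 and SOX10, the first genes of each marker list, and the 5 genes closest to each member. Some listed genes are counted but not reported here by name. ERBB3 and DLX6 were added after their values were seen. RefSeq names and gene order (GRCg7b) were used without coordinates, since the counts use another build.

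Alternatives were RLE factors, no filter, library totals only, a minimum of 10 counts per gene in each library, DESeq2 1.42.0, limma-voom (limma 3.58.1), the replicate number or the depth class as a block, the deeper or the shallower libraries only, and each library left out in turn.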

Additional observations from a re-analysis of the deposited data

Results flagged for a closer look

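The distance of the most extreme library to its neighbour, as a part of the group's range, was computed for the members, their shares of the MEF2 counts and the marker sums. It passed Dixon's 95% limit in 2 of 32 groups of 4 libraries, where chance alone gives about 1.6. Both concern Lmx1aE1-EGFP+ library 4. MEF2A was at 59.9 CPM in this library and at 67.0 to 67.7 CPM in the other Lmx1aE1-EGFP+ libraries (0.908 of the range of log2 CPM). The share of MEF2D in the MEF2 counts was 12.7% in this library and 14.9% to 15.3% in the others (0.831 of the range). The same library had the highest MEF2C, at 74.8 CPM and 48.4% of the MEF2 counts. Without it the log2 fold change was 1.94 for MEF2C, 0.09 for MEF2A and -0.70 for MEF2D.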

How the results depend on the processing

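MEF2C and MEF2D kept their direction under all 18 alternatives. When 1 library at a time was left out, the log2 fold change ran from 1.94 to 2.30 for MEF2C, from -0.80 to -0.62 for MEF2D, from 0.02 to 0.09 for MEF2A and, in the 6 fits where it passed the filter, from 0.16 to 0.78 for MEF2B. MEF2A was at -0.003 with library totals only, and MEF2D at -0.90 in the deeper and -0.49 in the shallower libraries alone. MEF2B gave no value with at least 10 counts in every library, within the shallower libraries, or without Lmx1aE1-EGFP+ library 3 or Sox3U3-EGFP+ library 1. The difference in the MEF2C share of 27.5 percentage points (Lmx1aE1-EGFP+ minus Sox3U3-EGFP+) ran from 24.6 to 29.2. The pathway genes called numbered 12 to 15 higher and 13 to 21 lower with a library left out, and 11 lower within the shallower libraries. Over all genes, 2033 were called higher and 1904 lower, against 1308 and 1068 in the deeper and 1155 and 1064 in the shallower libraries alone, which hold fewer samples. Past a log2 fold change of 1.5 as well, 120 were higher and 416 lower, against 198 higher within the shallower libraries and 225 lower with at least 10 counts in every library. Of 605 single values of 34 pathway genes, 548 kept their direction and call, 56 lost the call, and 1 changed sign, that of MAPK14 without Lmx1aE1-EGFP+ library 3 (-0.063 to 0.183 with a library left out). The marker sums without single abundant genes were added after seeing the data. Deviations from the group means gave r of -0.106, -0.233, 0.046 and -0.163 between same-numbered libraries. Whether same-numbered libraries were collected together is not given in the sources used here, and so few values cannot decide it. With the replicate number as a block MEF2C was at 2.10, MEF2A at 0.05, MEF2D at -0.70 and MEF2B at 0.10, and 13 pathway genes were higher and 16 lower.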

Other observations

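By RefSeq's gene order MEF2C lies on the sex chromosome Z, of which male birds carry an extra copy. The 498 Z-linked genes tested had a median log2 fold change of -0.08, against -0.005 for 10411 autosomal genes, and 45 of them (9.04%) rose and 73 (14.7%) fell in Lmx1aE1-EGFP+ cells. Of the autosomal genes 1556 (14.9%) rose and 1417 (13.6%) fell. The named neighbours of MEF2C on one side, CETN3 and MBLAC2, did not pass the test (0.15, SE 0.14, and 0.01, SE 0.40). The sex of the embryos was not tested.

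Of the 6 genes within 3 places of MEF2A, 1 rose and 3 fell. SYNM, an intermediate filament gene known from muscle, rose by 1.27 (SE 0.21), whereas ADAMTS17 was at -1.36 (SE 0.17), LYSMD4 at -0.95 (SE 0.22) and the receptor IGF1R at -0.45 (SE 0.09), and LRRC28 and CERS3 did not pass (0.10, SE 0.11, and -0.20, SE 0.42). Beside MEF2D, PIAS3, a SUMO ligase, had no overlap between the groups but did not pass (0.58, SE 0.26), and the ammonium transporter gene RHBG fell by 1.55 (SE 0.33, adjusted p = 0.00272, edgeR). BORCS8, which lies near MEF2B and shares transcripts with it in mammals, was at -0.01 (SE 0.12). These neighbours were looked at after the members' values were known.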
